A study of Rattus norvegicus with 9 samples.

Results

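The renal outer medulla of 3 salt-sensitive rats that had received a scrambled GapmeR and a high-salt diet was compared with that of 3 rats collected before either began. The members are the 6 libraries of these rats, 1 library per rat, out of 9 libraries in the series, taken by the rat numbers in their titles, and all loci of the deposited table were described. All 6 rats were of the strain MCW SS, a line of Dahl salt-sensitive rats, and had the same surgery; their age is not given in the sources used here. Rats of the group labelled HS_SCR received 4 mg/kg of the scrambled GapmeR, a control antisense oligonucleotide, by the intra-renal route and ate a diet of 4% NaCl for 7 days. Rats of the group labelled 0.4% salt were kept on 0.4% NaCl and were collected at the point where the GapmeR and the new diet would have started. No group received the diet, the oligonucleotide or the 7 days alone, so that these cannot be told apart. The third group, HS_DT, received GapmeRs against Dnmt3a and Tet3 with the same diet, and its 3 libraries entered here only through the shared estimate of the spread and the filter on low values.

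The outer medulla holds the thick ascending limbs, which take up sodium chloride without water, together with the straight end of the proximal tubule, thin limbs, collecting ducts and the vascular bundles between them. It receives little oxygen for the work it does, and in the Dahl salt-sensitive strain it is known as a site where salt loading leads to tubular injury, leukocyte infiltration and high blood pressure. The proximal straight segment reabsorbs and secretes organic solutes and makes glucose, the thick ascending limb drives the concentrating mechanism, and the collecting duct sets the final salt and water content of the urine.

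Expression was measured as FPKM, fragments of a locus scaled by transcript length and by the mapped fragments of the library. A locus was tested when its mean over the 9 libraries was at least 1 FPKM, which held for 14338 of 30315 loci, and it is said to have risen or fallen when limma's moderated test gave an adjusted p under 0.05. The labelled tissue was checked against its markers: SLC12A1, the sodium-potassium-chloride cotransporter of the thick ascending limb, ran from 451 to 975 FPKM in the 6 libraries. Slc12a3, its relative of the distal convoluted tubule, which lies in the cortex, ran from 1.84 to 3.30 FPKM. Podocyte and glomerular markers, however, summed to 156 to 191 FPKM in 0.4% salt and to 133 to 219 FPKM in HS_SCR. How much cortex each piece of tissue held was not tested. The relative depth, read from the steps between low values, ran from 0.925 to 1.01 in 0.4% salt and from 0.762 to 0.907 in HS_SCR. By this measure every HS_SCR library lay below every 0.4% salt library. The steps give the scale of the values in a library, and the number of mapped fragments behind them is not known. On the first principal component of the 6 libraries (45.7% of the variance) the groups lay apart, at -41.6 to -23.7 for 0.4% salt and 25.2 to 37.5 for HS_SCR. On the second component (26.9%) HS_SCR replicate 3 lay at -48.2 and the other 5 libraries between -0.23 and 27.8. Loci of the mitochondrial genome took 20.6% of all FPKM in HS_SCR replicate 3, against 26.9% to 31.9% in the other 5. Rank correlations between libraries were 0.979 to 0.983 within 0.4% salt and 0.931 to 0.968 within HS_SCR. HS_SCR replicates 1 and 2 carry rat numbers of a lower series than HS_SCR replicate 3 and all 0.4% salt rats, so the series partly goes with the group.

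Against 0.4% salt, 1175 of the 14338 tested loci rose in HS_SCR (8.2%) and 699 fell (4.88%), together 13.1%. The largest changes were more often falls: 129 loci rose and 180 fell by a log2 change of more than 1, 18 rose and 40 fell by more than 2, and 4 rose and 11 fell by more than 3. The FPKM ranges of the groups did not overlap at 4805 loci (33.5%), 19.1% higher and 14.5% lower in HS_SCR. The median log2 change over all tested loci was 0.02, and 52.2% of the loci had a value above 0. Among the calls, 235 rises and 75 falls were made in each of the 9 fits that left out 1 library. Without HS_SCR replicate 3, a fit in which group and rat number series coincide, 2937 loci rose and 2255 fell. Without 0.4% salt replicate 2, 259 rose and 86 fell, and without 0.4% salt replicate 1, 328 rose and 117 fell. Of the 158 genes named in the text that rose or fell, 61 did so in all 9 fits. The call of 88 of them ended without 0.4% salt replicate 1, of 94 without 0.4% salt replicate 2, and of 48 without 0.4% salt replicate 3. It ended for 35, 44 and 4 without HS_SCR replicates 1, 2 and 3, and for 26, 37 and 14 without HS_DT replicates 1, 2 and 3. In a fit of the 2 groups only it ended for 84 of the 158. A log2 change printed with no number of fits was called in all 9 or did not pass. This does not hold for genes named without a log2 change. A range in brackets after a list's count is its lowest and highest value over the 9 fits, the lowest being reached without 0.4% salt replicate 1 or 2. Genes said not to have passed, apart from Slc7a13, were named after their values were seen. The 69 gene lists held 1962 entries, of which 121 had no locus, 178 lay under the 1 FPKM mean and 1663 were tested. Their counts of calls are to be read beside the shares of all tested loci, 8.2% risen and 4.88% fallen, which some lists lay near.

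**Figure D1:**
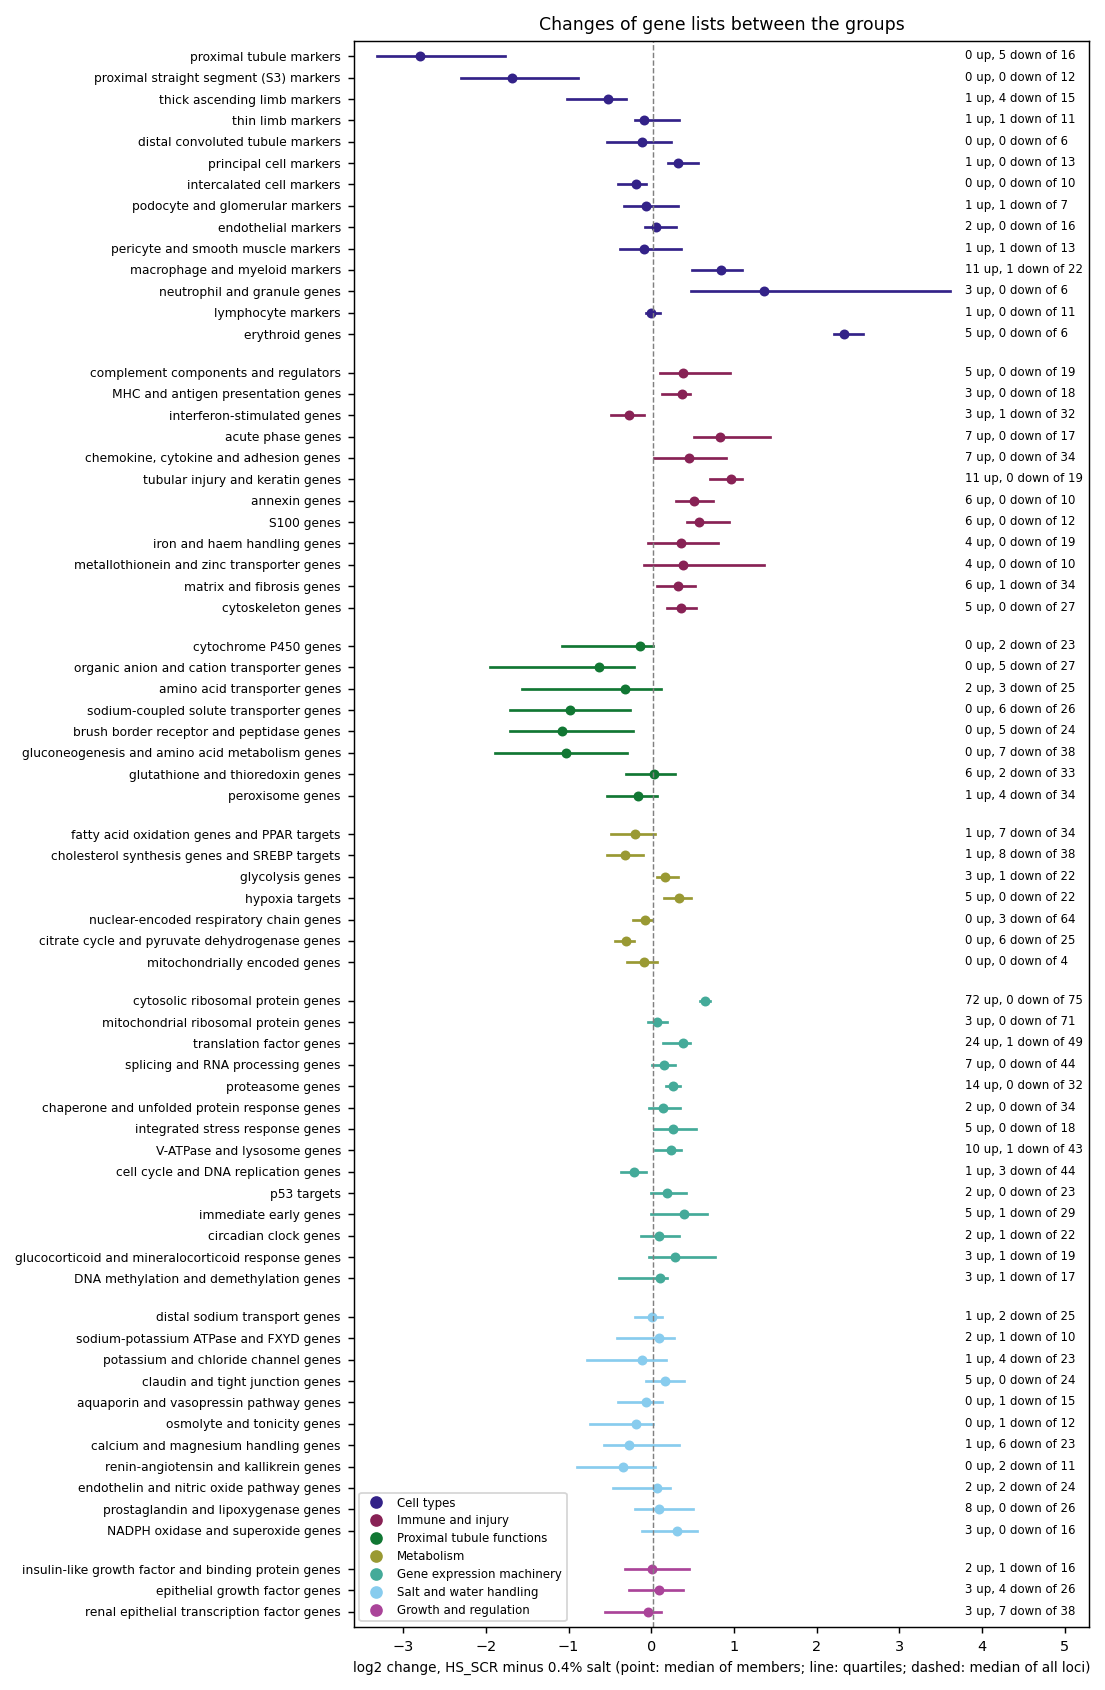
Log2 changes (HS_SCR minus 0.4% salt) of 69 gene lists, grouped by theme: the point is the median of the tested members, the line runs over their quartiles, and the dashed line is the median of all loci (0.02). At the right stand the members that rose and fell; proximal tubule markers lie lowest, at -2.80, and erythroid genes highest, at 2.33.

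The rises with the smallest p included a pair of claudins and a pair of C1q chains, the latter described with the macrophage markers. Genes ranked by p or by size of change had to have ranges that did not overlap, so groups lying apart is part of their choice. A small p likewise goes with a small spread within groups. Cldn7 (rn5 chromosome 10, 56321560 to 56323745), a claudin of the distal nephron and collecting duct, stood at 47.6, 44.9 and 49.0 FPKM in the 0.4% salt rats and 95.2, 108 and 97.1 FPKM in the HS_SCR rats. It rose by a log2 change of 1.07 ± 0.07 (SE; adjusted p = 0.00212). The lowest HS_SCR rat lay well above the highest 0.4% salt rat, and the spread within each group was small. Cldn4 (chromosome 12, 26761463 to 26763280), which forms paracellular chloride pathways in the collecting duct, stood at 79.7, 78.9 and 82.7 FPKM in the 0.4% salt rats and 160.2, 143 and 172 FPKM in the HS_SCR rats (0.97 ± 0.09, adjusted p = 0.00564). Again every HS_SCR rat lay above every 0.4% salt rat. Lgals3, galectin 3, made by macrophages and by injured epithelium, stood at 90.3, 87.9 and 91.0 FPKM in the 0.4% salt rats and 232, 170.2 and 205 FPKM in the HS_SCR rats (1.15 ± 0.11). Igfbp3, the main carrier of insulin-like growth factors in plasma, went from 8.81, 10.9 and 12.7 FPKM to 26.9, 25.2 and 31.1 FPKM (1.29 ± 0.13). Neither gene's groups overlapped. Plp2, a membrane protein of the endoplasmic reticulum (0.82 ± 0.07), Blnk, an adaptor of immune receptor signalling (0.81 ± 0.08), Bcat1, which transaminates branched-chain amino acids (1.20 ± 0.12), and Dbndd2, a dysbindin-domain protein (0.65 ± 0.06), completed the 10 together with C1qb and C1qc. All 10 were called in each of the 9 fits that left out 1 library.

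Among the largest rises that passed, Apoe, the apolipoprotein of macrophages and other cells that carries cholesterol, stood at 379, 383 and 508 FPKM in the 0.4% salt rats and 953, 1575 and 2353 FPKM in the HS_SCR rats (1.86 ± 0.30, adjusted p = 0.00941). The HS_SCR rats all lay above the 0.4% salt rats but differed from each other by more than 2-fold in Apoe. Lgals5, a galectin of rat reticulocytes, stood at 0.260, 0.281 and 0.321 FPKM in the 0.4% salt rats and 6.23, 5.38 and 1.44 FPKM in the HS_SCR rats (1.91 ± 0.37, adjusted p = 0.0160; 6 of the 9 fits, adjusted p = 0.0668 without 0.4% salt replicate 2). HS_SCR replicate 3 held the lowest of the HS_SCR values of Lgals5, as it did for the summed erythroid genes.

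The falls with the smallest p were chosen by the same rule, so narrow groups that lie apart are again part of the choice. Plekha6 (chromosome 13, 55608310 to 55632761), a protein of epithelial cell junctions, stood at 57.5, 59.3 and 55.4 FPKM in the 0.4% salt rats and 29.8, 28.5 and 29.5 FPKM in the HS_SCR rats, and fell by 0.95 ± 0.06 on the log2 scale (adjusted p = 0.00212). The HS_SCR values of Plekha6 lay close together and far below those of 0.4% salt. Tmem207 (chromosome 11, 83046597 to 83072722), a small membrane protein, stood at 54.8, 55.4 and 35.2 FPKM in the 0.4% salt rats and 12.4, 12.5 and 9.13 FPKM in the HS_SCR rats (-1.99 ± 0.19). Igsf10, an immunoglobulin superfamily protein, stood at 15.9, 15.6 and 19.8 FPKM in the 0.4% salt rats and 7.11, 5.43 and 5.05 FPKM in the HS_SCR rats (-1.40 ± 0.15). Acadsb, which oxidises short branched-chain acyl-CoA, went from 36.3, 36.4 and 28.1 FPKM to 12.01, 11.9 and 15.5 FPKM (-1.29 ± 0.14). In these 3 genes, too, each HS_SCR rat lay below each 0.4% salt rat, and the narrower group was that of HS_SCR for Tmem207. Caln1, a calcium-binding protein (-1.66 ± 0.19), Amph, amphiphysin of endocytosis (-0.92 ± 0.10), and Ephb2, an ephrin receptor (-0.94 ± 0.11), fell as well. Ndrg3 and Adam1b are each listed by 2 entries at a single position, and Tmem116 (-1.23 ± 0.14) shares that of Adam1b, so these values are uncertain as to the gene. The entries with the smaller p changed by -1.04 ± 0.10 (Ndrg3) and -1.39 ± 0.16 (Adam1b), and the other entries by -0.98 ± 0.15 and -0.98 ± 0.18. The 10 entries with the smallest p were called in each of the 9 fits, and the other entry of Adam1b in 7 of them.

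**Figure D2:**
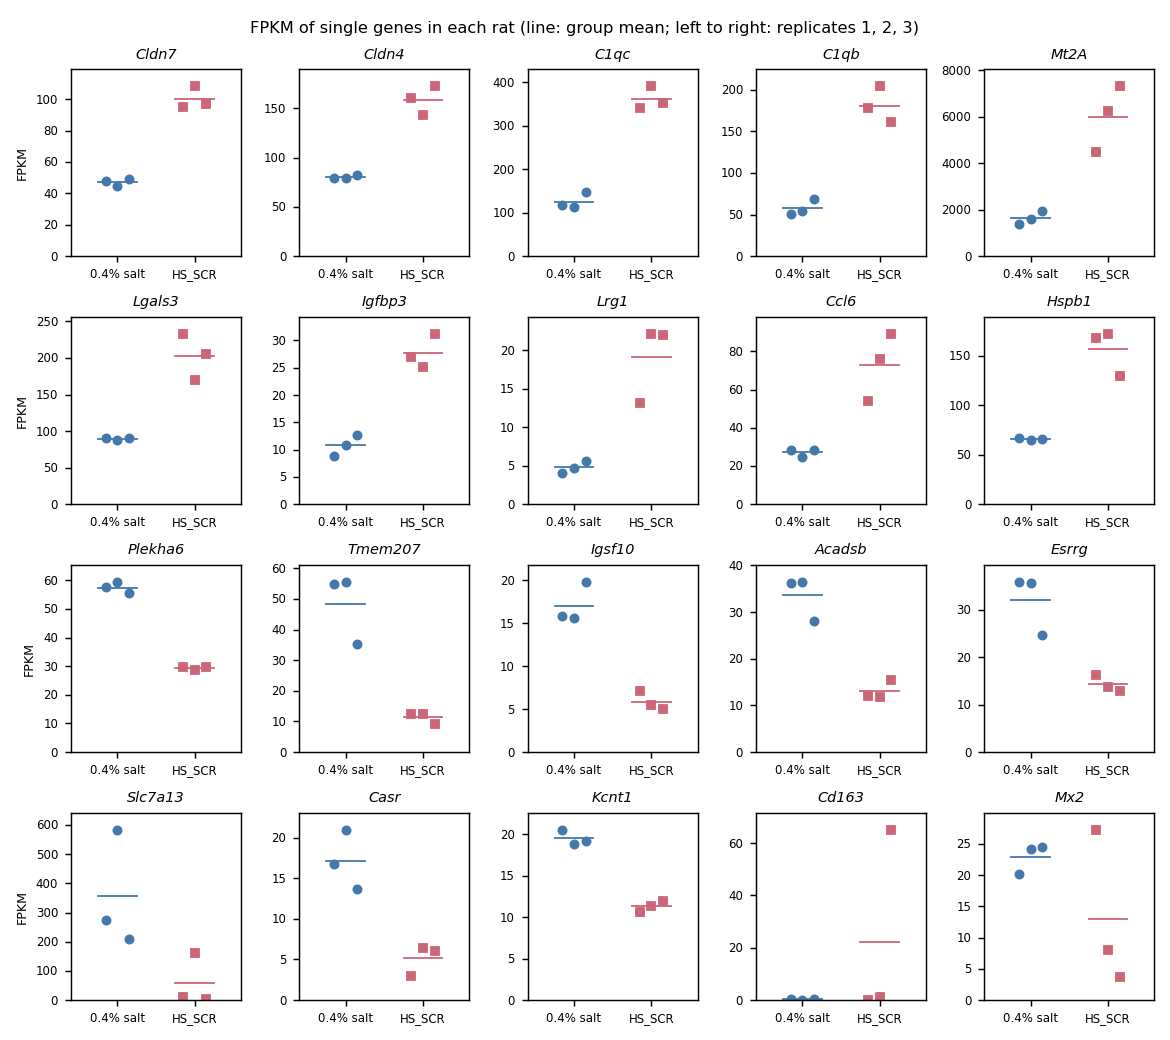
FPKM of 20 genes in each of the 6 rats (circles: 0.4% salt, squares: HS_SCR; from left to right replicates 1, 2 and 3; line: group mean; axes start at 0). In the first 3 rows the groups lie apart for every gene, which was required of genes ranked by p or size of change. In the last row Slc7a13 and Mx2 did not pass, and Cd163 is high in HS_SCR replicate 3 alone (64.9 FPKM).

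Along the nephron, markers of the proximal tubule and of its straight segment lay lower in HS_SCR, and those of the thick ascending limb in part. Those of the principal cell mostly had a higher mean, but only 1 of 13 rose. In bulk tissue, fewer cells of a type, less RNA per cell and a different cut of the tissue cannot be told apart. All 16 tested proximal tubule markers had a lower mean in HS_SCR, 5 of them fell, and 13 had ranges below those of 0.4% salt (median log2 change -2.80). Over all tested loci 4.88% fell and 14.5% had ranges below those of 0.4% salt. The summed level of the proximal tubule markers ran from 2619 to 6202 FPKM in 0.4% salt and from 225 to 1783 FPKM in HS_SCR. The count of falls ran from 0 without 0.4% salt replicate 1 to 9 over the fits that left out 1 library. Of the 12 tested markers of the straight segment, S3, none passed, 11 were lower and 9 had ranges below those of 0.4% salt (median -1.69). Slc7a13, an aspartate and glutamate transporter of this segment, stood at 275, 582 and 209 FPKM in the 0.4% salt rats and 10.1, 162 and 3.66 FPKM in the HS_SCR rats (-3.99 ± 1.14, adjusted p = 0.0532). Rats within each group differed by more than 2-fold in Slc7a13, and HS_SCR replicate 2 lay nearest to the lowest 0.4% salt rat.

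The thick ascending limb list held 4 falls, 1 rise and 10 members that missed the threshold (median -0.52). The falls were Egf (7 of 9 fits), Casr, Tmem72 and SLC12A1, and Cldn19, a claudin that lets magnesium and calcium through, rose slightly (0.32 ± 0.09, adjusted p = 0.0452; 2 of the 9 fits, adjusted p = 0.136 without 0.4% salt replicate 2). Umod, uromodulin, the most abundant protein of normal urine, did not pass. Its values were 2608, 2593 and 1439.9 FPKM in the 0.4% salt rats and 1283, 2120.3 and 381 FPKM in the HS_SCR rats, with the lowest value in HS_SCR replicate 3 and overlapping groups. Of 13 principal cell markers 12 were higher (median 0.32), and 1 rose (7.69%, beside 8.2% of all tested loci). Ranges above those of 0.4% salt were found in 2 of the 13, and in 19.1% of all tested loci. The rise was that of Tspan1, a tetraspanin, from 55.2, 48.5 and 56.2 FPKM to 84.8, 82.6 and 127 FPKM (0.84 ± 0.17, adjusted p = 0.0174, 7 of 9 fits). Without 0.4% salt replicate 2 the adjusted p of Tspan1 was 0.0776. Of 10 intercalated cell markers none passed (median -0.18), and none of 6 markers of the distal convoluted tubule did. Among 16 endothelial markers EGFL7, a matrix protein secreted by endothelium, rose from 9.59, 10.1 and 12.04 FPKM to 17.1, 20.7 and 19.5 FPKM (0.80 ± 0.12) with Pecam1 (3 of 9 fits), and the median of the list was 0.06.

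In the lists of solute transporters, of brush border proteins and of gluconeogenesis, falls outnumbered rises, and most members of each did not pass. Of 27 organic anion and cation transporter genes 5 (0 to 11) fell and none rose (median -0.63). Among 26 sodium-coupled sugar, phosphate and carboxylate transporter genes 6 (0 to 10) fell (median -0.98), and among 24 brush border receptors and peptidases 5 (0 to 9) fell (median -1.08). Slc22a12, the urate exchanger, stood at 23.4, 57.9 and 28.9 FPKM in the 0.4% salt rats and 1.25, 15.2 and 3.70 FPKM in the HS_SCR rats (-2.66 ± 0.70, adjusted p = 0.0415; 3 of the 9 fits, adjusted p = 0.144 without 0.4% salt replicate 2). Slc15a2, the high-affinity peptide transporter of the straight segment, stood at 13.6, 28.1 and 11.6 FPKM in the 0.4% salt rats and 3.99, 6.06 and 4.90 FPKM in the HS_SCR rats (-1.56 ± 0.34, adjusted p = 0.0235; 6 of the 9 fits, adjusted p = 0.0665 without 0.4% salt replicate 2). In both genes the groups did not overlap, and 0.4% salt replicate 2 had by far the highest value. Slc23a1, which takes up vitamin C (-1.84 ± 0.40, 5 of 9 fits), Slc5a6, which takes up biotin and pantothenate (-1.01 ± 0.21, 7 of 9 fits), Slco4c1, which moves cardiac glycosides and thyroid hormone (-1.82 ± 0.44, 3 of 9 fits), Pdzk1, a scaffold of the brush border (-2.35 ± 0.65, 2 of 9 fits), and the peptidases Anpep (-2.55 ± 0.70, 2 of 9 fits) and Mme, neprilysin (-0.98 ± 0.27, 2 of 9 fits), fell as well. Of 25 amino acid transporter genes 3 (0 to 7) fell and 2 (0 to 2) rose (median -0.32). The falls were Slc15a2, Slc16a10 (-0.57 ± 0.12, 5 of 9 fits) and Tmem27 (-3.26 ± 0.84, 3 of 9 fits), and the rises were Slc3a2 (0.35 ± 0.08, 5 of 9 fits) and Slc7a8 (0.32 ± 0.09, 1 of 9 fits).

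Of 38 genes of gluconeogenesis and amino acid metabolism 7 (0 to 11) fell and none rose (median -1.03). Oat, ornithine aminotransferase, stood at 262, 617 and 314 FPKM in the 0.4% salt rats and 66.1, 143 and 47.3 FPKM in the HS_SCR rats (-2.26 ± 0.55, adjusted p = 0.0340; 4 of the 9 fits, adjusted p = 0.122 without 0.4% salt replicate 2). The highest HS_SCR rat for Oat was replicate 2, the rat with the most proximal tubule RNA of its group. Kynu, of tryptophan breakdown (-2.05 ± 0.43, 7 of 9 fits), and Cth, which makes cysteine (-1.77 ± 0.45, 3 of 9 fits), fell. Mettl7b, a thiol methyltransferase of the endoplasmic reticulum, fell from 9.03, 24.5 and 10.2 FPKM to 0.395, 4.17 and 0.659 FPKM (-2.63 ± 0.63; 4 of the 9 fits, adjusted p = 0.116 without 0.4% salt replicate 2). Among 23 cytochrome P450 genes Cyp1a1 (-1.57 ± 0.36, 5 of 9 fits) and Cyp39a1 (-0.49 ± 0.11, 3 of 9 fits) fell, and the median was -0.14. When the mean log2 level of the proximal tubule markers in a library, its proximal tubule score, was added to the fit, the medians of the transporter, brush border and gluconeogenesis lists lay between -0.06 and 0.24. In that fit no locus passed by limma anywhere in the table, and 2083 loci had an unadjusted p under 0.05. The score itself separated the groups, at 5.41, 6.96 and 5.85 in 0.4% salt and 2.41, 4.49 and 3.18 in HS_SCR, so group and score cannot be told apart in that fit. Some members of these lists, among them Slc34a1, Slc22a6 and Miox, are also markers in the score. The shift of the medians is therefore in part fixed by that overlap. Without 0.4% salt replicate 1, and likewise without 0.4% salt replicate 2, the calls of Slc22a12, Slc15a2, Slc23a1, Slc5a6, Slco4c1, Pdzk1, Anpep, Mme, Oat, Kynu, Cth and Mettl7b ended, with adjusted p from 0.0572 to 0.113 and from 0.0580 to 0.162.

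Calcium and magnesium handling showed 6 falls and 1 rise among 23 genes (median -0.27). Casr (chromosome 11, 70278969 to 70352147), the receptor by which the thick ascending limb senses calcium, stood at 16.7, 20.9 and 13.7 FPKM in the 0.4% salt rats and 2.94, 6.38 and 6.04 FPKM in the HS_SCR rats (-1.60 ± 0.25, adjusted p = 0.00941). The groups were far apart, and the fall was called in all 9 fits. Kl, klotho, the co-receptor of fibroblast growth factor 23, stood at 27.0, 40.8 and 21.8 FPKM in the 0.4% salt rats and 10.9, 13.02 and 3.94 FPKM in the HS_SCR rats (-1.67 ± 0.39, adjusted p = 0.0285; 6 of the 9 fits, adjusted p = 0.108 without 0.4% salt replicate 2). Pth1r, the parathyroid hormone receptor (-1.06 ± 0.29; 2 of the 9 fits, adjusted p = 0.1501 without 0.4% salt replicate 2), and Atp2b4, a plasma membrane calcium pump (-0.75 ± 0.13; 8 of the 9 fits, adjusted p = 0.0560 without 0.4% salt replicate 2), fell too. Trpv6, an apical calcium channel of the distal nephron, did not pass at 5.01, 5.83 and 8.26 FPKM in the 0.4% salt rats and 9.16, 13.8 and 22.9 FPKM in the HS_SCR rats (1.08 ± 0.31, adjusted p = 0.0553). In Trpv6 each HS_SCR rat lay above each 0.4% salt rat.

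Of 23 potassium and chloride channel genes 4 (1 to 6) fell and 1 (0 to 3) rose. Kcnj10, a basolateral potassium channel, stood at 15.8, 15.1 and 9.93 FPKM in the 0.4% salt rats and 5.53, 4.17 and 1.72 FPKM in the HS_SCR rats (-1.67 ± 0.31, adjusted p = 0.0150; 7 of the 9 fits, adjusted p = 0.0674 without 0.4% salt replicate 2). Kcnt1, a sodium-activated potassium channel, stood at 20.5, 18.8 and 19.2 FPKM in the 0.4% salt rats and 10.7, 11.4 and 12.01 FPKM in the HS_SCR rats (-0.73 ± 0.10, adjusted p = 0.00638; all 9 fits). The groups were apart in both, with the wider spread in Kcnj10. Clcn5, the endosomal chloride-proton exchanger, fell (-0.81 ± 0.15, 8 of 9 fits), and Kcnj8, a subunit of ATP-sensitive channels in pericytes, rose (0.47 ± 0.10, 6 of 9 fits).

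Among 24 claudin and tight junction genes Cldn7, Cldn4, Cldn9, Cldn19 and F11r, a junctional adhesion molecule, rose (2 to 7 over the 9 fits) and none fell. Cldn9 was called in 2 of the 9 fits and F11r in 7. The median of the list was 0.17. When libraries were scaled to equal sums without mitochondrial loci it was -0.07, which lay 0.13 above that of all loci. Of 15 genes of aquaporins and the vasopressin pathway Aqp1, the constitutive water channel of the proximal tubule and thin limb, fell, from 465, 514 and 421 FPKM to 328, 346 and 209 FPKM (-0.69 ± 0.19, adjusted p = 0.0441; 3 of the 9 fits, adjusted p = 0.1498 without 0.4% salt replicate 2). Aqp2, the vasopressin-regulated channel of the principal cell, did not pass (0.56 ± 0.35). Of 12 osmolyte and tonicity genes no other passed. Among 10 genes of the sodium-potassium ATPase and its FXYD regulators Fxyd6 fell from 86.8, 58.0 and 64.2 FPKM to 27.4, 42.4 and 34.5 FPKM (-0.98 ± 0.20; 8 of the 9 fits, adjusted p = 0.0651 without 0.4% salt replicate 1), and Fxyd5 (0.57 ± 0.14; 2 of the 9 fits, adjusted p = 0.119 without 0.4% salt replicate 2) and Fxyd3 (0.93 ± 0.25; 0 of the 9 fits) rose. Of 25 genes of distal sodium transport, the epithelial sodium channel subunits Scnn1a (0.27 ± 0.28), Scnn1b (0.31 ± 0.12) and Scnn1g (0.13 ± 0.14) did not pass. Sgk1, the kinase induced by aldosterone and glucocorticoids, did not pass either, at 174, 161 and 144 FPKM in the 0.4% salt rats and 119.8, 134 and 559.6 FPKM in the HS_SCR rats. In Sgk1 a single HS_SCR rat stood far above the rest, and the others lay below 0.4% salt.

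Vasoactive and lipid mediator genes moved in different directions. Edn3, endothelin 3, stood at 27.0, 20.7 and 19.6 FPKM in the 0.4% salt rats and 12.99, 6.31 and 1.82 FPKM in the HS_SCR rats (-1.81 ± 0.49, adjusted p = 0.0444, 2 of 9 fits). Edn1, endothelin 1, a natriuretic signal of the collecting duct, stood at 3.01, 3.25 and 3.31 FPKM in the 0.4% salt rats and 4.99, 4.24 and 7.77 FPKM in the HS_SCR rats (0.64 ± 0.18, adjusted p = 0.0482, 2 of 9 fits). Without 0.4% salt replicate 1 the adjusted p was 0.134 for Edn3 and 0.140 for Edn1, and in each the groups did not overlap. Gucy1a3, a subunit of the nitric oxide receptor, fell (-0.86 ± 0.22, 2 of 9 fits), and Nos3, the endothelial nitric oxide synthase, did not pass (0.06 ± 0.14). Of 26 prostaglandin and lipoxygenase genes 8 (2 to 11) rose and none fell (median 0.09). With equal sums without mitochondrial loci the median was -0.14, which lay 0.07 above all loci. Alox5ap, which presents arachidonic acid to 5-lipoxygenase in leukocytes, stood at 22.5, 22.2 and 24.7 FPKM in the 0.4% salt rats and 51.4, 51.0 and 34.9 FPKM in the HS_SCR rats (0.94 ± 0.14, adjusted p = 0.00875; all 9 fits). Tbxas1, thromboxane synthase (0.82 ± 0.11; all 9 fits), Pla2g2a, a secreted phospholipase (1.17 ± 0.20, 8 of 9 fits), and the prostaglandin E receptors Ptger2 (0.92 ± 0.18, 7 of 9 fits) and Ptger4 (0.51 ± 0.10, 6 of 9 fits) rose with it. The cyclooxygenases Ptgs1 (0.11 ± 0.12, adjusted p = 0.564) and Ptgs2 (-0.95 ± 0.27, adjusted p = 0.0515) did not pass.

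Of 16 genes of superoxide production 3 (0 to 8) rose. Xdh, xanthine oxidoreductase, which makes urate and superoxide, stood at 18.9, 23.9 and 25.9 FPKM in the 0.4% salt rats and 34.8, 54.9 and 99.6 FPKM in the HS_SCR rats (1.31 ± 0.35, adjusted p = 0.0424; 2 of the 9 fits, adjusted p = 0.134 without 0.4% salt replicate 1). The groups of Xdh lay apart, with a nearly 3-fold range among the HS_SCR rats. Rac1, a GTPase of the oxidase complex (0.28 ± 0.07, 2 of 9 fits), and Cybb, its membrane subunit (0.36 ± 0.10, 1 of 9 fits), rose by less. Of 11 renin-angiotensin and kallikrein genes the peptidases Anpep and Mme fell and none rose. Agtr1a, the main angiotensin receptor, did not pass (-0.35 ± 0.20).

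Genes of macrophages were higher in HS_SCR. Of 22 macrophage and myeloid markers 11 rose and 1 fell (median 0.84), and their summed level ran from 2148 to 2468 FPKM in 0.4% salt and from 3553 to 5190 FPKM in HS_SCR. C1qc (chromosome 5, 159017506 to 159021135), a chain of the first complement component that tissue macrophages make, stood at 118, 113 and 147 FPKM in the 0.4% salt rats and 342, 391 and 353 FPKM in the HS_SCR rats (1.52 ± 0.11, adjusted p = 0.00219). Its neighbour C1qb (chromosome 5, 159008917 to 159014494) stood at 51.1, 53.7 and 69.1 FPKM in the 0.4% salt rats and 178, 204 and 161 FPKM in the HS_SCR rats (1.63 ± 0.15). Ctss, a lysosomal protease of antigen-presenting cells, stood at 93.5, 87.97 and 106 FPKM in the 0.4% salt rats and 189.8, 235 and 190.1 FPKM in the HS_SCR rats (1.09 ± 0.12). All HS_SCR rats lay above all 0.4% salt rats in these 3 genes, and all were called in each of the 9 fits. Cd68, a lysosomal protein of macrophages (0.89 ± 0.12), Lyz2, lysozyme (0.93 ± 0.16, 8 of 9 fits), Cd14, the co-receptor for bacterial lipopolysaccharide (0.83 ± 0.14, 7 of 9 fits), and Slc11a1, the metal transporter of the phagosome (1.04 ± 0.17, 8 of 9 fits), rose too. Cx3cr1, the fractalkine receptor of resident macrophages, was the exception that fell, from 19.0, 16.6 and 18.1 FPKM to 13.5, 14.0001 and 10.8 FPKM (-0.46 ± 0.12, adjusted p = 0.0382, 1 of 9 fits). The number of macrophage markers that rose ran from 5 without 0.4% salt replicate 2 to 18 without HS_SCR replicate 3.

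Of 19 complement genes 5 (3 to 10) rose and none fell. C3, the central component, stood at 7.65, 8.22 and 8.21 FPKM in the 0.4% salt rats and 28.6, 21.6 and 19.0 FPKM in the HS_SCR rats (1.39 ± 0.17). C2, of the classical pathway, stood at 22.3, 20.6 and 22.2 FPKM in the 0.4% salt rats and 45.7, 31.2 and 40.2 FPKM in the HS_SCR rats (0.80 ± 0.13). Both had ranges apart and were called in all 9 fits. Of 34 chemokine, cytokine and adhesion genes 7 (3 to 15) rose and none fell (median 0.46). Ccl6, a chemokine of macrophages, stood at 28.4, 24.6 and 28.4 FPKM in the 0.4% salt rats and 54.1, 76.2 and 89.0 FPKM in the HS_SCR rats (1.37 ± 0.17, adjusted p = 0.00566; all 9 fits). Tnfrsf12a, the receptor of the cytokine TWEAK (1.03 ± 0.14), Cxcr4, a chemokine receptor (1.02 ± 0.24; 4 of the 9 fits, adjusted p = 0.105 without 0.4% salt replicate 2), and Spp1, osteopontin (0.96 ± 0.20; 7 of the 9 fits, adjusted p = 0.0830 without 0.4% salt replicate 2), rose. Cxcl12, the ligand of Cxcr4, did not pass at 655, 566 and 689 FPKM in the 0.4% salt rats and 410.0, 346 and 118 FPKM in the HS_SCR rats (-1.31 ± 0.41, adjusted p = 0.0685). Every HS_SCR rat lay below every 0.4% salt rat, with the lowest value in HS_SCR replicate 3.

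Of 18 genes of antigen presentation RT1-Da, RT1-Db1 and RT1-Ba, class II molecules of the rat, rose (median 0.37). RT1-Db1 stood at 38.0, 41.2 and 43.6 FPKM in the 0.4% salt rats and 78.6, 82.8 and 59.1 FPKM in the HS_SCR rats (0.82 ± 0.16; 6 of the 9 fits, adjusted p = 0.0700 without 0.4% salt replicate 1). RT1 genes have near-identical copies, and reads may have been split between them. None of the 18 rose without 0.4% salt replicate 1, and 12 rose without HS_SCR replicate 3. RT1-Da rose in 3 of the 9 fits, adjusted p = 0.104 without 0.4% salt replicate 2, and RT1-Ba in 1 of the 9 fits, adjusted p = 0.156 without 0.4% salt replicate 2. The summed level of 19 lymphocyte markers overlapped, at 98.98 to 103 FPKM in 0.4% salt and 86.1 to 143 FPKM in HS_SCR, with CD79A at 0 in all 6 libraries. The summed level of 22 neutrophil genes was 132 to 206 FPKM against 441 to 1117 FPKM, but only 6 of them reached the 1 FPKM mean, 3 rose, and Prtn3 and Cxcr1 were at 0 in all 6 libraries. Erythroid genes summed to 770.3 to 1133 FPKM in 0.4% salt and to 1946 to 10746 FPKM in HS_SCR, with HS_SCR replicate 3 lowest. The part of blood cells in the rises of S100a8, S100a9, Lgals5 and the haemoglobins was not tested. The haemoglobin rises were called in 1 to 7 of the 9 fits.

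Among tubular injury, acute phase, annexin and S100 genes there were rises and no falls. Of 19 injury and keratin genes 11 (8 to 14) rose (median 0.96). Among 17 acute phase genes 7 (4 to 10) rose and all 17 were higher (median 0.83). Among 10 annexin genes 6 (3 to 7) rose and of 12 S100 genes 6 (5 to 8) rose. Lrg1, a plasma glycoprotein of the acute phase, stood at 4.08, 4.66 and 5.62 FPKM in the 0.4% salt rats and 13.1, 22.1 and 22.1 FPKM in the HS_SCR rats (1.77 ± 0.19, adjusted p = 0.00566). Socs3, which restrains cytokine signalling through STAT3, stood at 9.89, 13.1 and 16.7 FPKM in the 0.4% salt rats and 25.7, 35.1 and 43.0 FPKM in the HS_SCR rats (1.32 ± 0.22). Hspb1, a small heat shock protein, stood at 66.5, 64.7 and 66.1 FPKM in the 0.4% salt rats and 168, 172 and 130.1 FPKM in the HS_SCR rats (1.23 ± 0.14). In all 3 the groups lay apart and the calls were made in each of the 9 fits; Lrg1 and Socs3 were lowest in HS_SCR replicate 1, Hspb1 in replicate 3. Cebpd, a transcription factor of the acute phase whose locus spans 248299 bp in the table, rose (1.44 ± 0.23). Plaur, the urokinase receptor, rose from 4.97, 3.83 and 4.57 FPKM to 9.60, 8.74 and 9.77 FPKM (0.93 ± 0.11), and Krt7, a keratin of the collecting duct and of injured tubules, from 209, 196 and 182 FPKM to 299, 296 and 296 FPKM (0.60 ± 0.08). The membrane repair proteins Anxa1 (0.80 ± 0.10) and Anxa2 (0.80 ± 0.11) and the calcium-binding proteins S100a6 (0.87 ± 0.11) and S100a11 (0.97 ± 0.13) rose in all 9 fits. Havcr1, kidney injury molecule 1, did not pass at 26.1, 33.5 and 45.0 FPKM in the 0.4% salt rats and 26.0, 113 and 227 FPKM in the HS_SCR rats (1.34 ± 0.70, adjusted p = 0.222). HS_SCR replicate 1 lay at the level of the lowest 0.4% salt rat, and replicates 2 and 3 lay above all others.

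Of 34 matrix and fibrosis genes 6 (1 to 11) rose and 1 (0 to 2) fell (median 0.32); Vim, vimentin (0.96 ± 0.14), was called in all 9 fits, and Timp3, an inhibitor of metalloproteinases, fell (-0.70 ± 0.16, 5 of 9 fits). Of 27 cytoskeleton genes 5 rose, among them Myl12a, a myosin light chain, from 396, 352 and 386 FPKM to 689, 676 and 509 FPKM (0.71 ± 0.13, 8 of 9 fits), and the actin nucleation subunits Arpc1b (0.68 ± 0.13, 7 of 9 fits), Arpc2 (0.53 ± 0.11, 5 of 9 fits) and Arpc3 (0.51 ± 0.10, 6 of 9 fits). None of the 27 rose without 0.4% salt replicate 2, and 19 rose without HS_SCR replicate 3.

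Of 4 metallothionein loci, which encode small cysteine-rich proteins that hold zinc and copper, 3 rose, and Mt3 did not pass (0.72 ± 0.57). Mt2A (chromosome 19, 11283093 to 11283867) stood at 1397, 1606 and 1949 FPKM in the 0.4% salt rats and 4475, 6239 and 7315 FPKM in the HS_SCR rats (1.85 ± 0.20, adjusted p = 0.00566). Its neighbour Mt1a (chromosome 19, 11277132 to 11278149) stood at 500.0, 646 and 700.0 FPKM in the 0.4% salt rats and 1696, 1719.6 and 2496 FPKM in the HS_SCR rats (1.67 ± 0.21, adjusted p = 0.00638). In both, the lowest HS_SCR rat lay more than 2-fold above the highest 0.4% salt rat, and both were called in each of the 9 fits. A locus labelled MT1 on another chromosome rose as well (1.59 ± 0.29, 7 of 9 fits), and reads may have been shared with the near-identical copies. The zinc transporter Slc39a1 rose (0.46 ± 0.09, 7 of 9 fits), and 6 of the 10 metallothionein and zinc transporter genes did not pass.

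The 250 bases before the start of both genes are shown because metallothioneins are known to be induced through metal response elements, whose core was searched as TGCACNC and TGCGCNC on both strands. The sequences are from RefSeq on the assembly GRCr8, where the gene of Mt1a is listed as Mt1, and matches of either form are in capitals, in the letters of the printed strand.
Mt2A: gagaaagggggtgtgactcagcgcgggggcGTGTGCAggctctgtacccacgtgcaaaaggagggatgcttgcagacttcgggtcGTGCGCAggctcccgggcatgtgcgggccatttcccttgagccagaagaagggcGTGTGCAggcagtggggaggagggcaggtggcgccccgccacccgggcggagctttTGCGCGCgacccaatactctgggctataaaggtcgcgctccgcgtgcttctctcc
Mt1a: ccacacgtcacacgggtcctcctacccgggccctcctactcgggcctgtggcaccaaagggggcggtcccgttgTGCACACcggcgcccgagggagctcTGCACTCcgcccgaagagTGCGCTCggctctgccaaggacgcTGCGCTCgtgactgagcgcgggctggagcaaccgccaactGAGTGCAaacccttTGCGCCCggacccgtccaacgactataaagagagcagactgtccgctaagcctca
The window of Mt2A held 4 matches and that of Mt1a 6. Of all 27457 RefSeq windows of this length 21.2% held at least 1 match, 0.277% at least 4 and 0.0219% at least 6. Among the 44 tested loci with at least 4 matches 6.82% rose and the median log2 change was -0.07, against 9.14% and 0.02 for all 9051 tested loci with a window. A match is a description of the letters, not a site that was measured.

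Of 19 iron and haem genes 4 (1 to 5) rose and none fell. Fth1, the heavy chain of ferritin, stood at 2817, 2536 and 2519 FPKM in the 0.4% salt rats and 4485, 5679 and 3277 FPKM in the HS_SCR rats (0.74 ± 0.19, adjusted p = 0.0415; 1 of the 9 fits, adjusted p = 0.132 without 0.4% salt replicate 2). Its groups did not overlap, but HS_SCR replicate 3 came close to 0.4% salt. Tf, transferrin, rose (0.50 ± 0.10; 6 of the 9 fits, adjusted p = 0.0791 without 0.4% salt replicate 2). Of 33 glutathione and thioredoxin genes 6 (0 to 9) rose and 2 (0 to 4) fell. Glrx, glutaredoxin (1.05 ± 0.20, 7 of 9 fits), and Mgst2, a microsomal glutathione transferase (1.45 ± 0.30; 6 of the 9 fits, adjusted p = 0.0720 without 0.4% salt replicate 1), rose, and Gsta3, a glutathione transferase of the tubule, fell (-0.70 ± 0.13; 7 of the 9 fits, adjusted p = 0.0639 without 0.4% salt replicate 2).

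Falls without rises were found in the citrate cycle and at its entry. Of 25 genes of the cycle and of pyruvate dehydrogenase 6 (1 to 9) fell and none rose (median -0.31). Dlat, the acetyltransferase subunit of pyruvate dehydrogenase, stood at 42.3, 45.6 and 35.4 FPKM in the 0.4% salt rats and 25.4, 23.7 and 22.8 FPKM in the HS_SCR rats (-0.75 ± 0.10, adjusted p = 0.00668; all 9 fits). Each HS_SCR rat lay below each 0.4% salt rat, and the HS_SCR rats differed by less than 3 FPKM. Pdp2, a phosphatase that activates the same complex (-1.03 ± 0.21, 7 of 9 fits), fell as well. Of 34 genes of fatty acid oxidation and PPAR targets 7 (2 to 8) fell and 1 (0 to 3) rose (median -0.20). Acsl1, which activates long-chain fatty acids, stood at 47.9, 49.5 and 38.5 FPKM in the 0.4% salt rats and 27.4, 22.9 and 20.7 FPKM in the HS_SCR rats (-0.91 ± 0.13). Ppargc1b, a coactivator of mitochondrial genes, stood at 5.85, 7.82 and 5.72 FPKM in the 0.4% salt rats and 2.54, 2.05 and 3.496 FPKM in the HS_SCR rats (-1.02 ± 0.17). Both fell in all 9 fits, with groups that did not overlap. Of 38 genes of cholesterol and fatty acid synthesis 8 fell and 1 rose (median -0.31). Fdft1, squalene synthase (-0.83 ± 0.18, 6 of 9 fits), and Elovl6, a fatty acid elongase (-0.84 ± 0.17, 7 of 9 fits), were among the falls, and Pmvk, of the mevalonate pathway, rose (0.71 ± 0.10). The number of falls in that list ran from 0 to 12 over the 9 fits.

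Subunits of the respiratory chain mostly did not pass. Of 64 nuclear-encoded subunits Ndufs1 (2 of 9 fits), Sdha (7 of 9 fits) and Uqcrc2 (7 of 9 fits) fell while 61 missed the threshold. The median was -0.07 and turned to 0.13 without HS_SCR replicate 3, the library with the lowest level of these genes (7.51 on the log2 scale against 7.86 to 8.13 in the other 5). It also turned to 0.04 with library weights. Of 22 glycolysis genes 3 (0 to 9) rose and 1 (0 to 2) fell; Slc16a3, the lactate exporter (1.00 ± 0.19, 7 of 9 fits), and Ldha, lactate dehydrogenase A (0.64 ± 0.14; 5 of the 9 fits, adjusted p = 0.0869 without 0.4% salt replicate 2), rose, and Pfkm, the muscle form of phosphofructokinase, fell (-0.39 ± 0.09, 6 of 9 fits). The median of the list was 0.16 and fell below that of all loci under quantile normalization (-0.01 against 0.03). Of 22 hypoxia targets 5 (1 to 7) rose and none fell (median 0.34), among them Igfbp1, Angptl4 (2 of the 9 fits, adjusted p = 0.166 without 0.4% salt replicate 2), Ddit4, an inhibitor of the growth kinase mTOR (0.85 ± 0.19, 5 of 9 fits), and Ankrd37 (0.81 ± 0.20, 3 of 9 fits).

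Nearly all genes of cytosolic ribosomal proteins rose, by similar amounts in the 3 HS_SCR rats. Of 75 cytosolic ribosomal protein genes 72 rose, and the middle of the distribution was narrow (median 0.65, quartiles 0.59 and 0.71). The mean log2 level of the list was 9.40, 9.12 and 9.23 in the 0.4% salt rats and 9.92, 9.96 and 9.89 in the HS_SCR rats, so that HS_SCR replicate 3 did not stand apart here. The members that did not pass were Rpl27a (0.47 ± 0.21), Rps19 (0.55 ± 0.25) and Rplp2, which was read at 467, 20.9 and 25.2 FPKM in the 0.4% salt rats and 687, 732 and 28.8 FPKM in the HS_SCR rats, a pattern that split both groups. Rps28 stood at 1286, 1146 and 1359.5 FPKM in the 0.4% salt rats and 2231, 2382 and 2222 FPKM in the HS_SCR rats (0.85 ± 0.10, adjusted p = 0.00566), with every HS_SCR rat above every 0.4% salt rat. The call of Rps28 was made in all 9 fits but ended under quantile normalization, as did the calls of other members with large rises. Ribosomal protein genes have many processed copies, and how the authors' counting treated such reads is not given in the sources used here. From 57 to 73 members rose over the fits that left out 1 library, and the median lay at 0.39 with equal sums without mitochondrial loci and at 0.18 under quantile normalization, against medians of -0.21 and 0.03 for all loci.

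Transcripts of ribosomal protein genes are known to begin with a C followed by a run of C and T (C and U in the RNA), through which their translation follows growth signals. The first bases are shown for the 6 most abundant members that rose and had such a start in RefSeq (GRCr8), with 15 bases on each side of the start and the run from the first transcribed base in capitals.
RPL37A: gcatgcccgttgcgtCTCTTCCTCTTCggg
Rps27: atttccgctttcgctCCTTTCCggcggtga
Rpl35: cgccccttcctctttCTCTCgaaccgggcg
Rps26: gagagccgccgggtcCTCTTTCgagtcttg
Rps18: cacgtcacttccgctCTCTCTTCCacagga
Rpl39: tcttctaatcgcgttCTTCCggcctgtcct
A start with C and then 4 bases of C or T was found at the annotated position in 22 of 59 ribosomal protein windows (37.3%) and in 2.63% of all windows. Ribosomal protein genes with such a start had a median log2 change of 0.68 and the 37 without 0.65. Outside the ribosomal genes the 226 loci with such a start had a median of 0.02, as did the 8766 without it. No such start was found at the annotated position in the windows of 42 translation factor or 28 proteasome genes. For the same reason this does not show that their transcripts lack it.

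Of 49 translation factor genes 24 (7 to 34) rose and 1 (0 to 2) fell (median 0.39). Eif4ebp1, which holds back cap-dependent initiation and is a target of mTOR, stood at 18.8, 21.6 and 24.0 FPKM in the 0.4% salt rats and 39.6, 50.7 and 41.8 FPKM in the HS_SCR rats (1.00 ± 0.12, adjusted p = 0.00576; all 9 fits). Tpt1 (0.66 ± 0.10) and the initiation factor subunit EIF3F (0.65 ± 0.10) rose in all 9 fits, and Eif4g1, the scaffold of the cap complex, fell (-0.47 ± 0.11, 4 of 9 fits). All 32 proteasome genes were higher and 14 rose (median 0.27), led by Psmd8, of the regulatory particle (0.66 ± 0.11). With equal sums without mitochondrial loci the median of the list was 0.004, which lay 0.21 above all loci. The number of proteasome genes that rose ran from 1 without 0.4% salt replicate 2 to 24 without HS_SCR replicate 3. Of 44 splicing genes 7 (0 to 15) rose, among them the small core proteins Snrpg (0.62 ± 0.11, 8 of 9 fits) and Snrpf (0.55 ± 0.12, 5 of 9 fits), with a median of 0.15 that fell to 0.02 under quantile normalization, where all loci were at 0.03. Of 71 mitochondrial ribosomal protein genes 3 (0 to 26) rose (median 0.07, -0.01 under quantile normalization), and 26 rose without HS_SCR replicate 3.

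**Figure D3:**
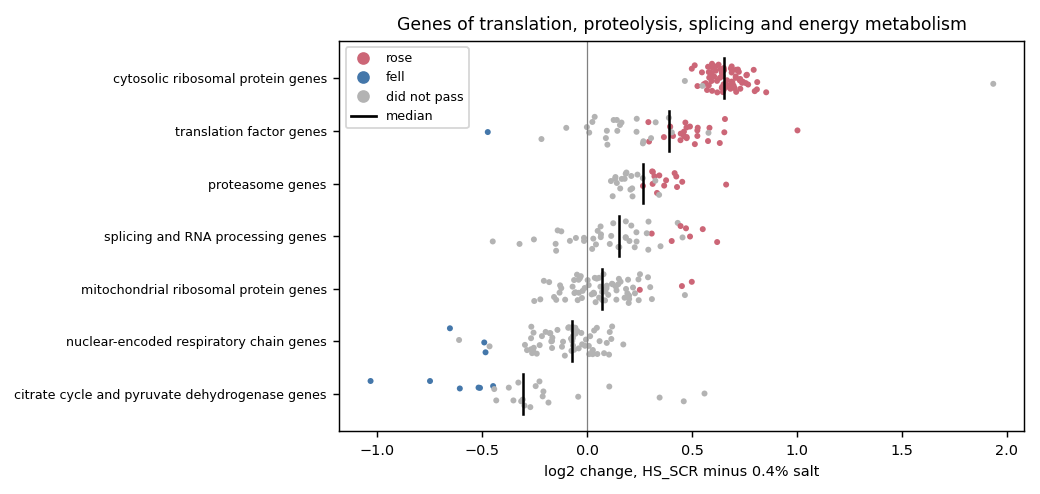
Log2 changes (HS_SCR minus 0.4% salt) of every tested member of 7 lists, coloured by call, with the median as a bar. Cytosolic ribosomal protein genes gather around 0.65 apart from Rplp2 at 1.94, and genes of the citrate cycle lie mostly below 0 (median -0.31).

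Of 43 genes of the lysosome and its proton pump 10 (3 to 18) rose and 1 (0 to 1) fell (median 0.24). With equal sums without mitochondrial loci the median was -0.02, which lay 0.19 above all loci. The cathepsins Ctsd (1.05 ± 0.19, 7 of 9 fits) and Ctsb (0.60 ± 0.08) and the cholesterol carrier Npc2 (0.61 ± 0.08) rose beside Ctss. Of 34 chaperone genes only Hspb1 and its partner Bag3 (0.43 ± 0.09, 6 of 9 fits) passed, and 14 rose without HS_SCR replicate 3. Of 18 genes of the integrated stress response 5 (1 to 6) rose, of which Atf5, a transcription factor, stood at 24.3, 22.1 and 22.9 FPKM in the 0.4% salt rats and 34.0, 36.8 and 31.9 FPKM in the HS_SCR rats (0.54 ± 0.08; all 9 fits). Of 23 p53 targets Bbc3, a promoter of apoptosis (0.73 ± 0.08; all 9 fits), and Cdkn1a (5 of the 9 fits, adjusted p = 0.0996 without 0.4% salt replicate 2) rose. That was 8.70% of the list, beside 8.2% of all tested loci.

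Of 44 cell cycle and DNA replication genes 35 were lower, 3 (0 to 6) fell and 1 (0 to 4) rose (median -0.21), and the median was -0.01 without HS_SCR replicate 3. The falls were Ccnd1 (-0.79 ± 0.20; 2 of the 9 fits, adjusted p = 0.137 without 0.4% salt replicate 2) and CCND2 (-0.74 ± 0.14, 7 of 9 fits), D-type cyclins, and Tyms, thymidylate synthase, which went from 20.9, 20.1 and 21.5 FPKM to 11.3, 11.6 and 14.5 FPKM (-0.70 ± 0.12; 7 of the 9 fits, adjusted p = 0.0535 without 0.4% salt replicate 1). Of 29 immediate early genes 5 (2 to 6) rose and 1 (0 to 1) fell. Myc, a transcription factor of growth and ribosome production, stood at 13.9, 16.9 and 16.6 FPKM in the 0.4% salt rats and 32.1, 36.4 and 41.2 FPKM in the HS_SCR rats (1.16 ± 0.14, adjusted p = 0.00566; all 9 fits). Ier3 (0.98 ± 0.16) and Maff, a small MAF protein (1.14 ± 0.19, 8 of 9 fits), rose, and Arc, which shapes synapses in neurons, fell (-1.61 ± 0.35; 6 of the 9 fits, adjusted p = 0.0915 without 0.4% salt replicate 1). In Myc, Ier3, Maff and Arc every HS_SCR rat lay on the same side of every 0.4% salt rat.

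Of 17 genes of DNA methylation and demethylation Dnmt3a fell (-0.70 ± 0.18; 2 of the 9 fits, adjusted p = 0.115 without 0.4% salt replicate 1), and Gadd45b, a stress sensor tied to DNA demethylation (1.02 ± 0.18, 7 of 9 fits), Apex1, a repair endonuclease (0.41 ± 0.07, 7 of 9 fits), and Mbd2, which binds methylated DNA (0.33 ± 0.09; 2 of the 9 fits, adjusted p = 0.126 without 0.4% salt replicate 3), rose. Their median, 0.11, was 0.02 under quantile normalization. Of 22 clock genes 2 rose (9.09%, beside 8.2% of all tested loci), among them Nfil3 (0.93 ± 0.18, 8 of 9 fits), and Clock fell (-1.06 ± 0.29), at 10.6, 10.5 and 9.84 FPKM in the 0.4% salt rats and 2.97, 3.25 and 8.5003 FPKM in the HS_SCR rats. HS_SCR replicate 3 lay near 0.4% salt, and the fall was called in 1 of the 9 fits, the fit without that rat (adjusted p = 0.00136).

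Growth factors and the transcription factors of the tubule held calls in both directions. Of 26 epithelial growth factor genes 4 (1 to 6) fell and 3 (0 to 4) rose. Hgf, the hepatocyte growth factor, stood at 41.4, 38.3 and 39.2 FPKM in the 0.4% salt rats and 21.3, 25.3 and 22.6 FPKM in the HS_SCR rats (-0.76 ± 0.10, adjusted p = 0.00638; all 9 fits). Hbegf, a ligand of the EGF receptor, rose (0.81 ± 0.19; 6 of the 9 fits, adjusted p = 0.0963 without 0.4% salt replicate 2). Of 16 genes of the insulin-like growth factor system Igfbp1 and Igfbp3 rose and Irs1, an adaptor of the insulin receptor, fell (-0.63 ± 0.12; 7 of the 9 fits, adjusted p = 0.0649 without 0.4% salt replicate 1). Of 38 renal epithelial transcription factors 7 (1 to 13) fell and 3 (0 to 4) rose, 18.4% and 7.89% beside 4.88% and 8.2% of all tested loci. Esrrg (chromosome 13, 110711761 to 111329081), an orphan nuclear receptor that drives mitochondrial and transport genes of the tubule, stood at 35.7, 35.6 and 24.7 FPKM in the 0.4% salt rats and 16.1, 13.7 and 12.9 FPKM in the HS_SCR rats (-1.10 ± 0.15, adjusted p = 0.00690; all 9 fits). Its groups did not overlap. Its relative Esrrb (-1.07 ± 0.26; 5 of the 9 fits, adjusted p = 0.121 without 0.4% salt replicate 2), Sim1 (-0.73 ± 0.14, 6 of 9 fits), Nr1h4, the bile acid receptor (-0.72 ± 0.16, 4 of 9 fits), and Tfap2b, of the distal nephron (-0.64 ± 0.12, 7 of 9 fits), fell. Elf3, an epithelial factor induced by inflammation (0.60 ± 0.12, 7 of 9 fits), and Pax8, a factor of renal development (0.47 ± 0.10, 5 of 9 fits), rose.

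The 3 HS_SCR rats differed among themselves more than the 0.4% salt rats did, and not along 1 axis. HS_SCR replicate 1 had the lowest mean log2 level of the proximal tubule markers (2.41 against 3.18 and 4.49) and the highest of erythroid genes (7.94 against 7.64 and 6.05). HS_SCR replicate 3 had the highest level of acute phase genes (5.31 against 4.05 and 4.94) and of glucocorticoid and mineralocorticoid response genes (6.31 against 5.58 and 5.99), where 0.4% salt rats stood at 3.63 to 3.97 and at 5.53 to 5.57. It had the lowest level of interferon-stimulated genes (3.85 against 4.93 and 4.28, with 4.60 to 4.67 in 0.4% salt) and of cell cycle genes (2.71 against 3.51 and 3.13, with 3.28 to 3.49 in 0.4% salt). Of 32 interferon-stimulated genes 27 were lower, yet 3 (0 to 5) rose and 1 (0 to 12) fell (median -0.27). Mx2, an antiviral GTPase, shows the spread, at 20.2, 24.1 and 24.4 FPKM in the 0.4% salt rats and 27.2, 7.99 and 3.71 FPKM in the HS_SCR rats. HS_SCR replicate 1 lay above all 0.4% salt rats, and replicates 2 and 3 far below. Of 19 glucocorticoid and mineralocorticoid response genes 3 (2 to 4) rose and 1 (0 to 2) fell. Tsc22d3, the glucocorticoid-induced leucine zipper protein, stood at 54.4, 48.0 and 49.1 FPKM in the 0.4% salt rats and 66.5, 114 and 116 FPKM in the HS_SCR rats (0.91 ± 0.20; 5 of the 9 fits, adjusted p = 0.0892 without 0.4% salt replicate 2), with HS_SCR replicate 1 only a little above 0.4% salt.

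In several genes HS_SCR replicate 3 stood apart from the other HS_SCR rats, and none of these passed. Cd163, the scavenger receptor that takes up haemoglobin bound to haptoglobin, stood at 0.222, 0.153 and 0.422 FPKM in the 0.4% salt rats and 0.160, 0.989 and 64.9 FPKM in the HS_SCR rats. Hmox1, haem oxygenase 1, stood at 26.0, 20.8 and 24.1 FPKM in the 0.4% salt rats and 32.1, 22.5 and 119 FPKM in the HS_SCR rats. Cldn3, a claudin, stood at 15.7, 15.01 and 14.3 FPKM in the 0.4% salt rats and 19.6, 23.8 and 54.3 FPKM in the HS_SCR rats. In each of these 3 genes HS_SCR replicate 3 was far above the other 5 rats. In Cldn3 the other HS_SCR rats also lay above every 0.4% salt rat. Cxcl13, which attracts B cells, showed the reverse, at 23.3, 24.97 and 30.1 FPKM in the 0.4% salt rats and 108, 90.3 and 19.9 FPKM in the HS_SCR rats, with replicates 1 and 2 high and replicate 3 below 0.4% salt. Zbtb16, a glucocorticoid-induced transcription factor, separated replicate 1 from replicates 2 and 3, at 4.46, 4.66 and 4.95 FPKM in the 0.4% salt rats and 1.32, 26.4 and 16.1 FPKM in the HS_SCR rats.

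**Figure D4:**
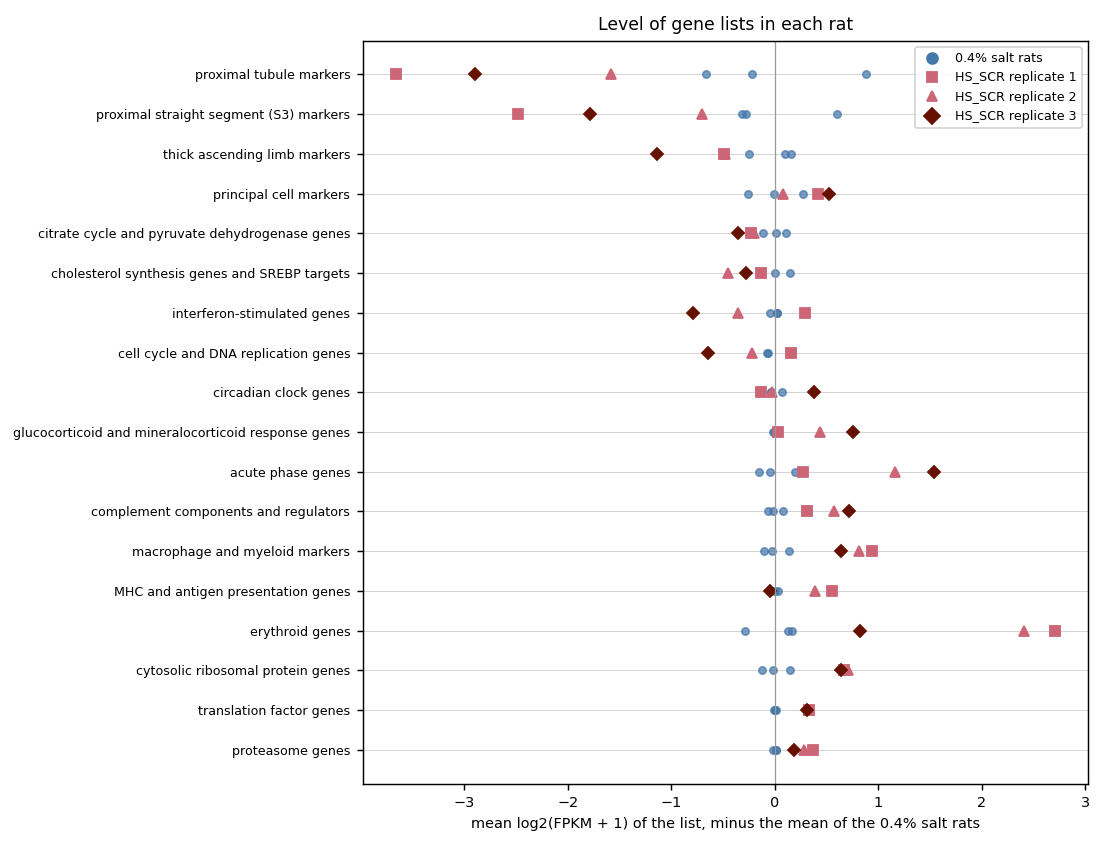
Mean log2(FPKM + 1) of 18 gene lists in each rat, as the difference from the mean of the 0.4% salt rats (circles: 0.4% salt; square, triangle and diamond: HS_SCR replicates 1, 2 and 3). The HS_SCR rats lie together for ribosomal protein, translation factor and proteasome genes and far from each other for proximal tubule, erythroid, interferon-stimulated and acute phase genes.

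The changes went with the width of the loci in the genome. The tested loci were split into 5 equal classes by the width of their span in the table. The median log2 change was 0.15 in the narrowest class (68 to 7865 bp), 0.08, 0.02 and -0.05 in the next, and -0.10 in the widest (91666 to 1189189 bp). Rises made up 13.9% of the narrowest and 4.11% of the widest class, and falls 1.81% and 8.40%. The trend was present in HS_SCR replicates 1 and 2, where the narrowest class lay above the widest by 0.39 and 0.37 relative to the mean of 0.4% salt, and was weaker in HS_SCR replicate 3, at 0.05. The 0.4% salt rats lay between -0.03 and 0.01. Ribosomal protein genes, which are narrow, kept a median of 0.50 with the trend of each library on width removed, where 929 loci rose and 689 fell.

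**Figure D5:**
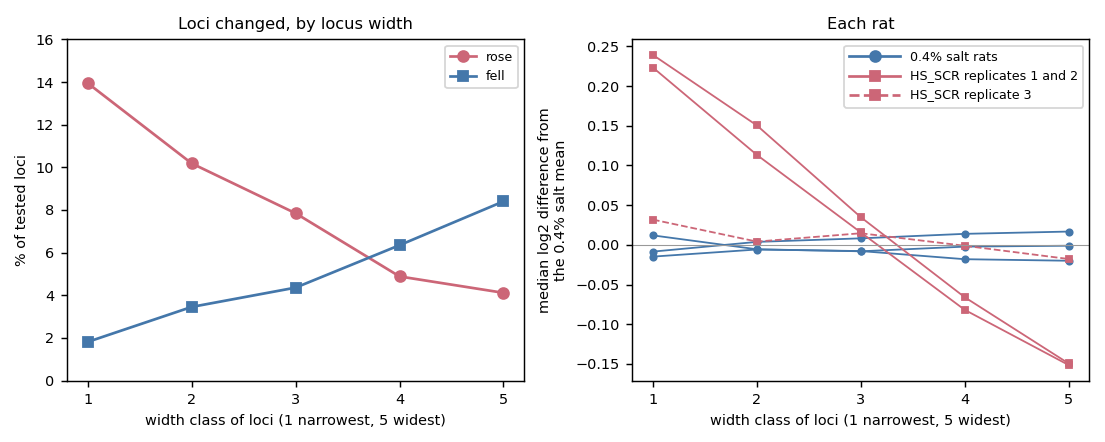
Left: percentage of tested loci that rose or fell in each class of locus width, from 13.9% and 1.81% in the narrowest to 4.11% and 8.40% in the widest. Right: median log2 difference from the mean of the 0.4% salt rats in each class, 1 line per rat; HS_SCR replicates 1 and 2 slope down, and HS_SCR replicate 3 (dashed) and the 0.4% salt rats stay near 0.

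Loci without a gene name took part as well. Of 1331 such loci 55 rose (4.13%) and 70 fell (5.26%), of 417 with an Ensembl identifier only 26 rose and 17 fell, and of 12100 with a single symbol 1060 rose and 581 fell. The largest falls without a name were on chromosome 2 (75933566 to 75937840; -3.31 ± 0.90), chromosome 16 (32492654 to 32501155; -3.05 ± 0.83) and chromosome 16 (31120728 to 31132672; -2.81 ± 0.50), each under 2 FPKM in HS_SCR replicates 1 and 3. The first and second of these falls were called in 1 of the 9 fits each (adjusted p = 0.157 and 0.158 without 0.4% salt replicate 2), and their calls ended with the smallest pseudocount tried. The third was called in 8 of the 9 fits. The largest rises were on chromosome 13 (114691946 to 114692095; 3.96 ± 0.90), the X chromosome (23600214 to 23610458; 1.98 ± 0.37) and chromosome 1 (2943183 to 2943367; 1.78 ± 0.32). These rises were called in 5, 7 and 8 of the 9 fits. The chromosome 13 locus is only 149 bp wide and was at 0 in 0.4% salt replicates 2 and 3, at 10.1 FPKM in replicate 1 and at 26.4 to 42.0 FPKM in HS_SCR. A span of this size is shorter than most transcripts, and its FPKM rests on few positions.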

How the data were processed

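RNA of the renal outer medulla was extracted with Trizol and made into libraries on a NeoPrep system, per the labels' protocols. The authors deposited a table of FPKM with 30315 loci. The build rn5 and the tools Cufflinks 2.2.1 and Trim Galore 0.2.5 stand in the submitters' processing notes; for the aligner, the annotation and the number of mapped fragments the sources used here give nothing, so the depth is unknown. Groups were taken from the titles. A second column with the header of an HS_DT library, equal to it at all loci, was left out (1 column). Each library was taken as 1 rat from the number in its title, and p-values measure the spread between these libraries.

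Values were tested as log2(FPKM + 1), a scale that understates the change of low genes, with limma 3.58.1 (trend) in R 4.3.3. All 9 libraries entered 1 fit, which left 6 residual degrees of freedom, or 8.54 with moderation. Tests were two-sided with Benjamini-Hochberg adjustment over the 14338 tested loci, and the steps were tested on simulated data. Where loci share a symbol, the values are those of the locus with the highest mean, unless said otherwise.

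Named genes were taken from called single-symbol genes whose ranges did not overlap and whose mean reached 1 FPKM in at least 1 group: the 15 with the largest change and the 10 with the smallest p in each direction. To these came up to 5 called members of each list with the largest change, 2 with the smallest p where none was called, and 3 loci without a name in each direction. Genes treated in an earlier description of these data could be left out, and some called list members were added after their values were seen. Some genes that the rule names are not reported here. The members and lists were chosen with earlier results of these data known. The alternatives changed the pseudocount, the filter, the scaling, the moderation, the library weights, the samples in the fit, the covariates (replicate number, rat number series, proximal tubule score), the locus-width trend, and left out each library in turn.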

Additional observations from a re-analysis of the deposited data

How the results depend on the processing

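The counts of 1175 rises and 699 falls stayed within 1.5 times of these values with either smaller pseudocount, without a filter, with a minimum of 5 FPKM, under median-ratio or quantile scaling, with robust moderation, with a term for the rat number series and with the width trend removed. They were 2294 and 1725 with library weights and 326 and 140 in a fit of the 2 groups only. Equal sums without mitochondrial loci gave 392 and 2912 and moved the median of all loci by -0.23, so that 11.9% of the calls were rises in place of 62.7%. Once the proximal tubule score was in the model, limma called 0 and 0, with 2083 loci at an unadjusted p under 0.05. Over the fits without 1 library, rises ran from 259 to 2937 and falls from 86 to 2255. Nothing in the labels says that a replicate number joins rats, and the deviations of same-numbered 0.4% salt and HS_SCR libraries correlated at 0.17, 0.20 and 0.04; with the number as a replicate block 1136 loci rose and 770.0 fell.

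Among genes that did not pass, the log2 change turned with equal sums without mitochondrial loci for Nos3 (-0.15), Ptgs1 (-0.14) and Scnn1g (-0.11), with the proximal tubule score for Aqp2 (-0.14), Nos3 (-0.23), Ptgs1 (-0.12) and Sgk1 (-0.13), with the rat number series for Nos3 (-0.0556) and Scnn1g (-0.0020), and with library weights for Sgk1 (-0.16). Over the fits without 1 library it ran from -0.10 to 0.57 for Scnn1a, from -0.33 to 0.78 for Sgk1 and from -0.0521 to 1.20 for Mt3, in each lowest without HS_SCR replicate 3. The cause was not tested. No gene said to have risen or fallen changed direction under these alternatives. Of the 158 such genes, the calls of 46 ended with the rat number series, 33 with equal sums, 31 without a filter and 25 under quantile scaling. S100a6, Ctsb, Tpt1 and EIF3F were among those of quantile scaling. List medians moved by more than the spread between rats in 38 of 69 lists with equal sums, 19 with the proximal tubule score, 16 with the series, 10 with quantile scaling and 9 without HS_SCR replicate 3. FPKM without counts gives no counting interval, so low genes carry an error that cannot be stated.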
